A study of Mus musculus with 15 samples.

Results

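The 7 genes described here mark the immature, double-positive stage of thymocyte development: Rag1, Rag2, Dntt, Ptcra, Ly6d, Endou and Aqp11. They were taken by gene symbol from the annotation of the array, and each gene is read from its brightest probe set, averaged over the 15 arrays. All 7 were among the 18193 genes measured and the 11871 genes tested, where a gene was tested if its signal lay above the median of the array in at least 3 arrays. The arrays cover 5 groups of sorted C57BL/6 thymocytes from young adult mice, each with 3 arrays labelled as biological replicates. Both double-positive (DP, CD4+ CD8+) groups came from B2m-/- mice, which lack β2-microglobulin and so select cells on MHC class II. They were the PreDP group, negative for CD69 and TCRβ, and the PostDP group, positive for CD69 and TCRβ. Both CD4 single-positive groups with intact Tak1 came from Rag2-GFP BAC transgenic mice, in which a GFP reporter follows Rag2 activity, and were gated on GFP and against NK1.1, CD25 and GL3. They were the SM&M1 group, Qa2- CD69+, and the later M2 group, Qa2+ CD69-. The last group, Tak1-deficient SM&M1, held Qa2- CD69+ CD4 single-positive cells from Tak1f/f CD4Cre mice, in which Cre under Cd4 control deletes the kinase gene Tak1 (Map3k7) from the double-positive stage onward, and its labels name no GFP or dump gate. B2m-/- mice gave no single-positive sample and Rag2-GFP mice gave no double-positive sample, so the mouse line and the stage cannot be told apart between PostDP and SM&M1. No Cre-positive sample with intact Tak1 was used here, so mouse line, gate and Tak1 loss cannot be told apart either. The labels do not say that replicates came from separate animals, and p-values measure the spread between these arrays.

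A double-positive thymocyte is still assembling its T cell receptor α chain. The RAG1 and RAG2 proteins form the recombinase that cuts receptor gene segments, and terminal deoxynucleotidyl transferase, encoded by Dntt, adds nucleotides at the joins. Ptcra encodes pre-Tα, the invariant partner with which a new β chain forms the pre-T cell receptor before any α chain is made. Positive selection of a finished αβ receptor ends recombination and sends the cell to the single-positive stage. Ly6d encodes a GPI-anchored surface protein also used to mark lymphoid progenitors, Endou a poly(U)-specific endoribonuclease, and Aqp11 an aquaporin of intracellular membranes.

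The labels were checked on the genes they name. Map3k7 signal was 11.1 to 51.1 in the Tak1-deficient arrays and 1335 to 1392 in SM&M1, and B2m signal was 734 to 1140 in the 6 B2m-/- arrays and 15086 to 29585 in the other 9. Cd3e and Cd4 transcripts were present in every array, and Cd8a fell from 5570 to 7781 in PostDP to 185 to 244.7 in SM&M1. The median signal was 80.5 to 121 in 14 arrays and 168 in Tak1-deficient replicate 2. That array also had a 3′ to 5′ signal ratio of the actin control probes of 1.62, against 1.02 to 1.18 in the other 14, and correlated with its own group at 0.873 and 0.879, where the arrays of the other groups correlated at 0.965 or more. Fits without it are given where they matter.

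Sequences just upstream of Rag1, Rag2, Dntt and Ptcra are shown, and that of Aqp11 was searched but is not printed. RefSeq start regions on GRCm38.p6 were at hand for 5 of the 7 genes, and each line gives the 250 bases before the start site on the strand of the gene. Capitals mark CAGCTG, an E-box that reads the same on both strands and is a form bound by the E proteins of lymphocytes. The Rag1 stretch is chr2:101649533-101649782 on the minus strand, and the Rag2 stretch is chr2:101624462-101624711 on the plus strand, so the recombinase genes lie close together in opposite orientation. The Dntt stretch is chr19:41029025-41029274 on the plus strand and the Ptcra stretch is chr17:46763713-46763962 on the minus strand.
Rag1: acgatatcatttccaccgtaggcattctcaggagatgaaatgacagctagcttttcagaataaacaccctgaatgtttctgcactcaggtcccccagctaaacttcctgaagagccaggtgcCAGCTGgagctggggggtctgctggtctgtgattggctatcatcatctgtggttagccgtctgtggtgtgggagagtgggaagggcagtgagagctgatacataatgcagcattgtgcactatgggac
Rag2: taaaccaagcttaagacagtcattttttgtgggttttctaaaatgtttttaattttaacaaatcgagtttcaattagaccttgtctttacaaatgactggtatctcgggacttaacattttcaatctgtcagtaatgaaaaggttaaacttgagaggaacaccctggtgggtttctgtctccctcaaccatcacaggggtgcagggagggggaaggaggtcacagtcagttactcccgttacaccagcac
Dntt: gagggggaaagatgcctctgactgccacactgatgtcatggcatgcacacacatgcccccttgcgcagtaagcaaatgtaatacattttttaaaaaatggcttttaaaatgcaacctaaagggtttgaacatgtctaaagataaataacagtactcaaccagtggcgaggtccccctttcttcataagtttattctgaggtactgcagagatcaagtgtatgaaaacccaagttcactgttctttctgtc
Ptcra: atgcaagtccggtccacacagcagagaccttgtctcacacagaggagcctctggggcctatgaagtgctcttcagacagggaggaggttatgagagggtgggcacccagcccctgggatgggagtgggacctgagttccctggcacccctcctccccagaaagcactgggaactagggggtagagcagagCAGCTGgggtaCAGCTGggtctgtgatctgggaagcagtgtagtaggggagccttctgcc
The Ptcra stretch held 2 CAGCTG boxes, starting 60 and 49 bases before the start site, and the Rag1 stretch held 1, starting 128 bases before it. Rag2, Dntt and Aqp11 held 0 CAGCTG in this window. Of 32851 promoter stretches of the same length, 13.0% held 1 or more CAGCTG and 1.26% held 2 or more. The general E-box, CANNTG with N any base, was in all 5 stretches. It was found 3 times each in Rag1 and Dntt, 2 times in Ptcra and 1 time each in Rag2 and Aqp11. Of all stretches, 66.2% held 1 or more CANNTG and 31.8% held 2 or more. TGTGGT, the core of Runx sites, was found on either strand 2 times in Rag1 and 0 times in the other 4. Of all stretches, 14.0% held 1 or more and 1.27% held 2 or more. TGGGAA, the core of Ikaros sites, was found 2 times in Ptcra and 1 time each in Rag1 and Aqp11. It was found 1 or more times in 21.6% of all stretches and 2 or more times in 2.77%. For the GATA factor family the sequence searched was AGATAA, found 1 time in Dntt and in 9.99% of all stretches. TATAAA was in none of the 5 stretches and in 12.4% of all. These matches describe the letters in the windows, and binding was not measured in these samples.

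The transcripts of all 7 genes were highest in PreDP cells, and most of them were lower at the next stage and lower again in single-positive cells. Between PreDP and PostDP, 6 of the 7 genes passed the test as lower (limma on log2(signal + 16), adjusted p under 0.05 over all 11871 genes), where 7.57% of all tested genes were called lower. All 7 had every PostDP array below every PreDP array, an arrangement found for 19.6% of tested genes. The fitted falls ran from 3.96-fold for Dntt to 29.4-fold for Ptcra, with a median log2 difference over the 7 genes of -3.30, against 0.01 over all tested genes. Between PostDP and SM&M1, 4 of the 7 passed as lower, against 4.14% of all tested genes, and the median over the 7 was -2.16 against 0.03 over all. These were Rag1, Dntt, Endou and Aqp11, and the same 4 had no overlap between groups, against 17.9% of tested genes. Fold changes are on the log2(signal + 16) scale, which understates the change of dim genes. In sorted bulk cells, fewer cells with a transcript and less transcript per cell cannot be told apart.

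**Figure D1:**
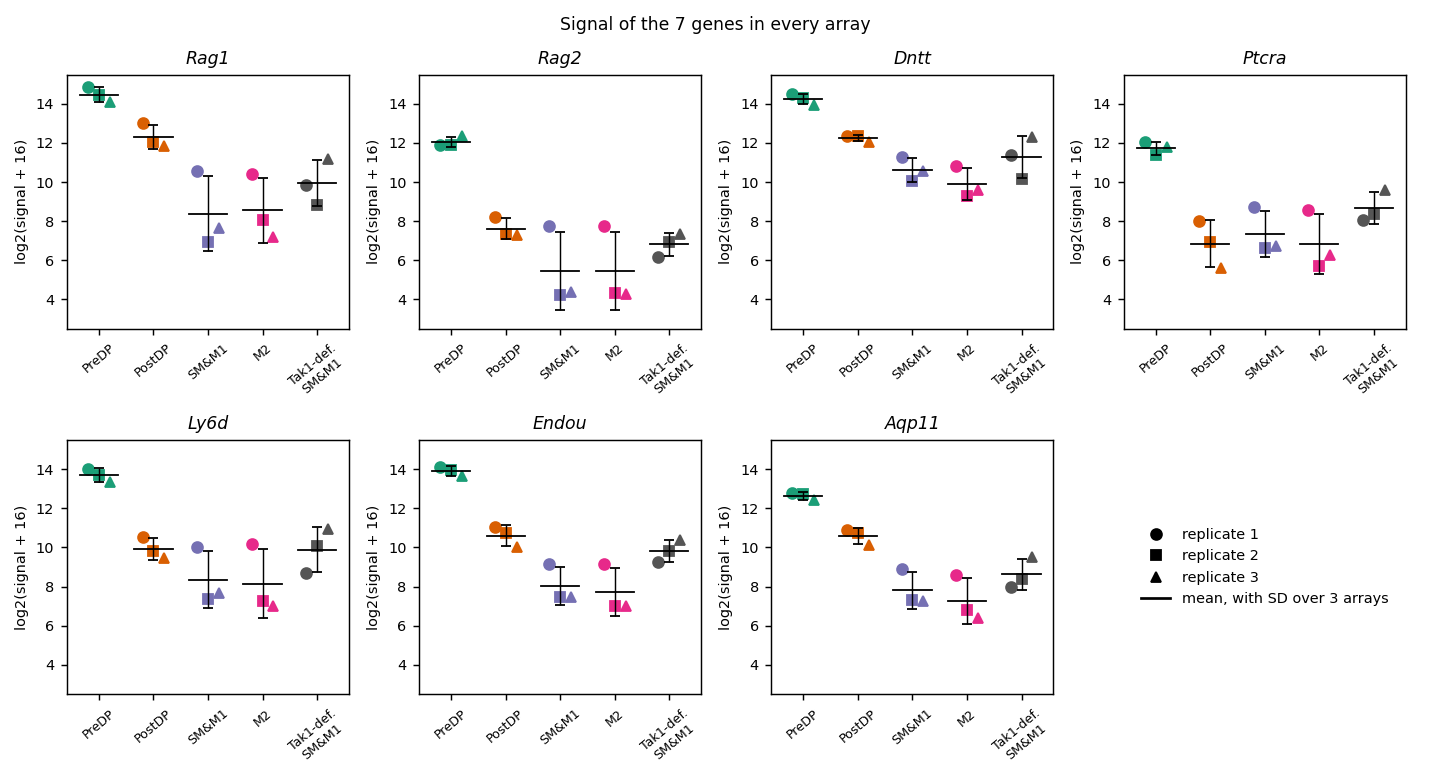
Signal of the 7 genes in each of the 15 arrays, as log2(signal + 16), by group. Symbols give the replicate number, horizontal lines the group mean and bars the SD over 3 arrays. PreDP arrays lie highest for every gene, and replicate 1 lies highest within both SM&M1 and M2.

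Rag1, the catalytic subunit that cuts DNA, had signals of 29868, 22393 and 17414 in PreDP and 8260, 4277 and 3660 in PostDP (replicates 1, 2 and 3). Every PostDP array was below every PreDP array, and replicate 1 was the highest of both groups. The mean PostDP signal was 23.2% of the PreDP mean, and the log2 difference of -2.16 ± 0.93 (SE, 3 arrays a group) did not pass the test when all 15 arrays shared one spread (limma adjusted p = 0.156). In a fit of PreDP and PostDP alone the same difference passed (limma adjusted p = 0.00507), and with the replicate number as a block it passed as well (limma adjusted p = 0.00135). Rag1 signals were 1482, 106 and 189 in SM&M1 and 1346, 248 and 130 in M2. All SM&M1 arrays were below all PostDP arrays, and replicate 1 stood far above the others in both single-positive groups. The step from PostDP to SM&M1 was a fall of 15.2-fold (log2 difference -3.92 ± 0.93, limma adjusted p = 0.0141). Without PostDP replicate 1 the adjusted p was 0.0585, without SM&M1 replicate 2 it was 0.0664 and without SM&M1 replicate 3 it was 0.0645, with differences between -3.20 and -3.57.

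Rag2, the recombinase partner that reads histone marks, had signals of 3835, 3864 and 5186 in PreDP and 284, 144 and 139 in PostDP. Groups did not overlap, and in contrast to Rag1 the highest PreDP array was replicate 3. The mean PostDP signal was 4.40% of the PreDP mean, a fall of 21.8-fold in the fit (log2 difference -4.45 ± 0.95, limma adjusted p = 0.00575). With a pseudocount of 1 in place of 16, the adjusted p was 0.0590. Later, in SM&M1, the Rag2 signals were 201, 2.44 and 4.999, and in M2 they were 202, 3.84 and 3.43. Replicates 2 and 3 of both groups lay below the median of their arrays, and replicate 1 of SM&M1 reached into the PostDP range. The step from PostDP to SM&M1 did not pass the test (log2 difference -2.16 ± 0.95, limma adjusted p = 0.179), and without SM&M1 replicate 1 it did (log2 difference -3.31, limma adjusted p = 0.0270). The single-positive mice carry a BAC with Rag2 control sequence, and its part in the Rag2 signal was not tested.

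Dntt is read by 3 probe sets. The brightest, 1449757_x_at, gave 22955, 20040 and 15854 in PreDP and 5232, 5216 and 4275 in PostDP. The groups were far apart and the PostDP arrays were close to each other. Dntt fell by 1.99 ± 0.49 on the log2 scale (limma adjusted p = 0.0146), to 25.0% of the PreDP mean signal. Without PreDP replicate 1 the adjusted p was 0.0561 and without PostDP replicate 3 it was 0.0590. Among single-positive cells, the signals of the same probe set in SM&M1 were 2457, 1033 and 1510, and in M2 they were 1810, 615 and 765. SM&M1 lay below PostDP in every array, and Dntt kept 8.50% of its PreDP signal in SM&M1, the largest share among the 7 genes by this probe set. By 1450545_a_at, about as bright in PreDP, the share was 5.48%, below the 5.63% of Ptcra. The step from PostDP to SM&M1 was a log2 difference of -1.63 ± 0.49 that passed (limma adjusted p = 0.0481). It no longer passed without the filter on low signals (adjusted p = 0.0815), after centring on array medians (0.108), with a pseudocount of 1 (0.0541), or after averaging the probe sets of each gene (0.0574). It also did not pass without any one of PostDP replicates 1, 2 and 3 or of SM&M1 replicates 2 and 3, with adjusted p between 0.0988 and 0.169. The probe sets 1450545_a_at and 1420166_at had negative differences too at the step from PreDP to PostDP, -2.44 (limma adjusted p = 0.0311, here over all probe sets tested) and -1.32 (limma adjusted p = 0.224). At the step from PostDP to SM&M1 they had -2.06 (limma adjusted p = 0.0795) and -1.66 (limma adjusted p = 0.125), and neither passed.

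Ptcra had nearly the whole of its drop at the first step. Its signals were 4158, 2644 and 3567 in PreDP and 241, 107 and 33.4 in PostDP. No array overlapped, and PostDP replicates 2 and 3 were below the median of their arrays. The fall was 29.4-fold (log2 difference -4.88 ± 0.78, limma adjusted p = 0.000819), to 3.68% of the PreDP mean signal. In SM&M1 the signals were 408, 83.1 and 92.2, and in M2 they were 367, 36.5 and 60.3. These ranges overlapped with PostDP, and in each of the groups replicate 1 was the only array above its median. The difference between PostDP and SM&M1 was 0.51 ± 0.78 (limma adjusted p = 0.781), with a 95% interval from -1.18 to 2.20, and its sign turned without PostDP replicate 3 (-0.10) or without SM&M1 replicate 1 (-0.17).

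Whether a gene changed by a different amount at the second step than at the first was tested directly in the same fit. Ptcra was the only one of the 7 genes to pass, with a second step 5.39 ± 1.36 higher on the log2 scale than the first (limma adjusted p = 0.0258), where 8.42% of tested genes passed in either direction and 4.83% as higher. The call was lost without PreDP replicate 1 (adjusted p = 0.0551), PostDP replicate 2 (0.0892), PostDP replicate 3 (0.174) or SM&M1 replicate 1 (0.0515), with differences of 4.16 to 5.47. The other 6 genes had adjusted p from 0.478 to 0.897, and their intervals were wide, for Rag1 from -5.23 to 1.71 and for Rag2 from -1.26 to 5.84. Described as shares of the whole log2 drop from PreDP to M2, the part reached by PostDP was 36.5% for Rag1, 38.4% for Aqp11, 45.9% for Dntt, 53.4% for Endou, 67.3% for Rag2, 67.9% for Ly6d and 99.8% for Ptcra. Rag1 and Rag2, whose proteins work as a complex, lay apart in this order, and the test of the difference between steps gave no call for either.

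**Figure D2:**
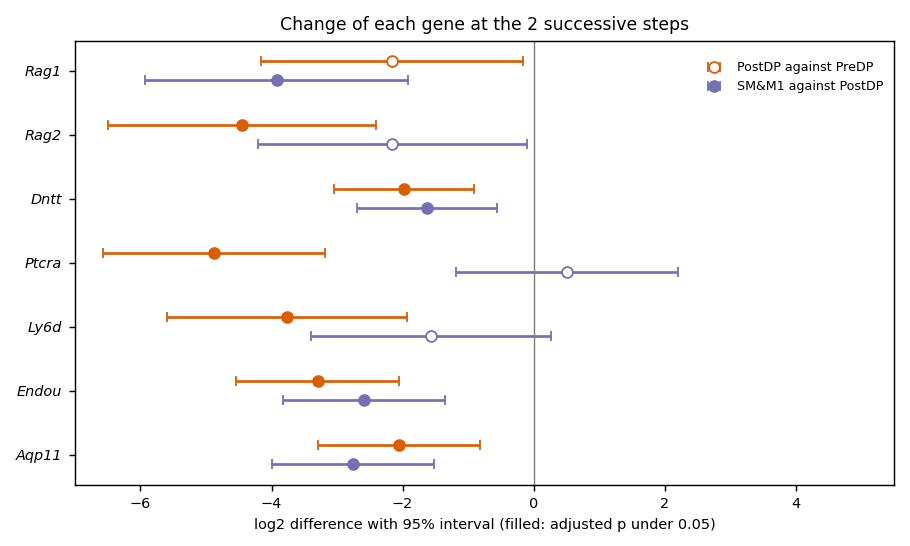
Log2 difference of each gene at the step from PreDP to PostDP (orange) and from PostDP to SM&M1 (purple), with 95% intervals from the limma fit of all 15 arrays. Filled points passed at adjusted p under 0.05. Ptcra is the gene whose second difference, 0.51, lies above 0.

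Ly6d had signals of 16655, 13463 and 10329 in PreDP and 1480, 873 and 678 in PostDP. The groups did not overlap, and in both the order of the replicates was the same, with replicate 1 highest and replicate 3 lowest. The fall was 13.6-fold (log2 difference -3.77 ± 0.85, limma adjusted p = 0.00813). Ly6d signals in SM&M1 were 1034, 151 and 185, and in M2 they were 1147, 139 and 111. SM&M1 replicate 1 lay within the PostDP range, and the step from PostDP to SM&M1 did not pass (log2 difference -1.57 ± 0.85, limma adjusted p = 0.289). In a limma fit of these 2 groups with a replicate block, although they were not taken as paired, the adjusted p was 0.0484.

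Endou, read mainly by 1449937_at, had signals of 17660, 15947 and 12675 in PreDP and 2087, 1718 and 1014 in PostDP. The ranges were far apart. The fall was 9.84-fold (log2 difference -3.30 ± 0.57, limma adjusted p = 0.00146). In SM&M1 the signals were 544, 160 and 159, and in M2 they were 548, 114 and 112. No SM&M1 array reached PostDP, and the step was a further fall of 6.02-fold (log2 difference -2.59 ± 0.57, limma adjusted p = 0.00959). Without SM&M1 replicate 3 the difference was -2.31 and the adjusted p was 0.0505. The other Endou probe set, 1449938_at, gave -3.15 and -2.79 at the same steps (limma adjusted p = 0.0108 and 0.0273).

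Aqp11, read mainly by 1429254_at, had signals of 6978, 6703 and 5386 in PreDP and 1867, 1661 and 1092 in PostDP. The groups did not overlap. The fall was 4.17-fold (log2 difference -2.06 ± 0.57, limma adjusted p = 0.0265), and leaving out any PreDP array, or PostDP replicate 2 or 3, gave adjusted p between 0.0515 and 0.108. In SM&M1 the signals were 462, 141 and 135, and in M2 they were 371, 96.8 and 67.9. Every SM&M1 array was below PostDP, and the second step was a fall of 6.76-fold (log2 difference -2.76 ± 0.57, limma adjusted p = 0.00671). The other 2 probe sets of Aqp11 had smaller differences of the same sign. For 1447606_x_at they were -1.85 (limma adjusted p = 0.0231) and -0.97 (0.264), and for 1455846_at -0.95 (0.401) and -1.67 (0.111). In the M2 and SM&M1 arrays 1447606_x_at ranged only from 194 to 299.5, and replicate 1 was not the highest of either group there.

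From SM&M1 to M2, the step at which CD4 single-positive cells gain Qa2 and lose CD69, none of the 7 genes passed the test in limma, and none had an unadjusted p under 0.05 in the fit without pairing. Of all tested genes, 2.33% were called in either direction at this step. The log2 differences ran from -0.71 for Dntt to 0.16 for Rag1, with adjusted p from 0.812 to 1. Same-numbered arrays of these groups were taken as paired because their deviations correlated, which includes the replicate 1 gap itself. The labels give replicate numbers only and state no pairing. In the unpaired fit, the spread holds the gap between replicate 1 and the other arrays. The unpaired 95% interval for Rag1 ran from -1.84 to 2.17, and with the replicate block it ran from -0.74 to 1.07. Within the same-numbered pairs, M2 was lower than SM&M1 in all 3 for Dntt (-0.44, -0.73 and -0.97), Ptcra (-0.15, -0.91 and -0.50) and Aqp11 (-0.30, -0.48 and -0.84), where 27% of all tested genes were lower in all 3 pairs. With the block these 3 genes had an unadjusted p under 0.05, as had 26.2% of all tested genes, and none of the 7 passed after adjustment in limma, the lowest adjusted p being 0.0605 for Dntt, with an interval from -1.06 to -0.36. These pair counts are for the probe sets used, and others disagreed. For Aqp11, M2 was higher in all 3 pairs by 1447606_x_at and by 1455846_at. Their fitted differences, 0.10 and 0.80, did not pass in limma. For Dntt, 1420166_at was higher in M2 in pair 1. Rag2 differed little in each pair (0.0066, 0.11 and -0.11). Leaving out replicate 1 of both groups, an alternative chosen after seeing the data, gave differences from -0.85 to 0.32 and called none of the 7.

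The spread of the 7 genes within the single-positive groups followed the replicate numbers. Replicate 1 was the highest array for 7 of 7 genes in SM&M1 (34% of all tested genes) and for 7 of 7 in M2 (31.8%), and it was highest in both groups for 18.1% of tested genes. These counts are for the probe sets used. By the dim Aqp11 probe set 1455846_at, replicate 1 was the lowest array, with 19.8, 54.7 and 49.2 in SM&M1 and 26.0, 140 and 117 in M2. Replicate 1 was also the highest PostDP array for 7 of 7 genes (32.1% of tested genes). Its median excess there was smaller, 0.93 on the log2 scale, against 2.03 in SM&M1 and 2.60 in M2. In PreDP it was highest for 6 of 7 genes (36.4% of tested genes), with a median excess of 0.36. Relative to the PreDP mean signal of each gene, the median over the 7 genes was 7.27% in SM&M1 replicate 1 and 1.12% and 1.37% in replicates 2 and 3. In M2 it was 5.84% in replicate 1 and 1.06% and 0.826% in the others. Replicate 1 of SM&M1 and replicate 1 of M2 were thus near each other and above all 4 of the remaining arrays by this measure. By the probe sets used, the excess of replicate 1 over the mean of the other 2 arrays was largest for Rag2. It was 3.47 on the log2 scale in SM&M1 and 3.48 in M2. It was smallest for Dntt, 0.97 and 1.38, but this rank of Dntt depended on the probe set. By 1450545_a_at, Dntt gave 2167, 512 and 555 in SM&M1 and 1890, 289 and 235 in M2. By 1420166_at it gave 485, 125 and 160 in SM&M1 and 647, 81.4 and 126 in M2. In both, replicate 1 stood further above the other arrays than by the probe set used.

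Other transcripts of the double-positive stage did not all share that excess. Of 22 other genes listed for the double-positive stage, replicate 1 was highest for 7 in SM&M1 and 10 in M2. Several of the 22 stayed high or rose after PreDP. The mean SM&M1 signal was 99.2% of the PreDP mean for Dgka, 83.5% for Satb1, 696% for St6gal1 and 2837% for Nrgn. In such genes a small excess of PreDP-stage transcript could not be seen, so these counts say little about it. Arpp21, which encodes a regulated RNA-binding phosphoprotein, had signals of 762, 104 and 97.3 in SM&M1 and 870, 79.7 and 91.5 in M2, the same order as the 7 genes. Cd8a, which encodes the coreceptor chain that defines the double-positive stage, had 244.7, 190 and 185 in SM&M1, and 138, 119 and 21.2 in M2. Its excess in replicate 1 was 0.36 on the log2 scale in SM&M1 and 1.12 in M2, where the 7 genes had 0.97 to 3.47 and 1.38 to 3.48. Cd8b1, the partner chain, had 1469, 1230 and 1168 in SM&M1, an excess of 0.29, and an excess of 0.21 in M2. An excess of 1 or more was found for 1 of the 22 genes in SM&M1, Arpp21, and for 6 in M2, which were Arpp21, Cd24a (2.82), Nrgn (2.05), Ccr9 (1.20), Cd8a (1.12) and Mns1 (1.02). Cd24a, a surface protein gene of immature thymocytes, gave 2431, 379 and 287 in M2.

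**Figure D3:**
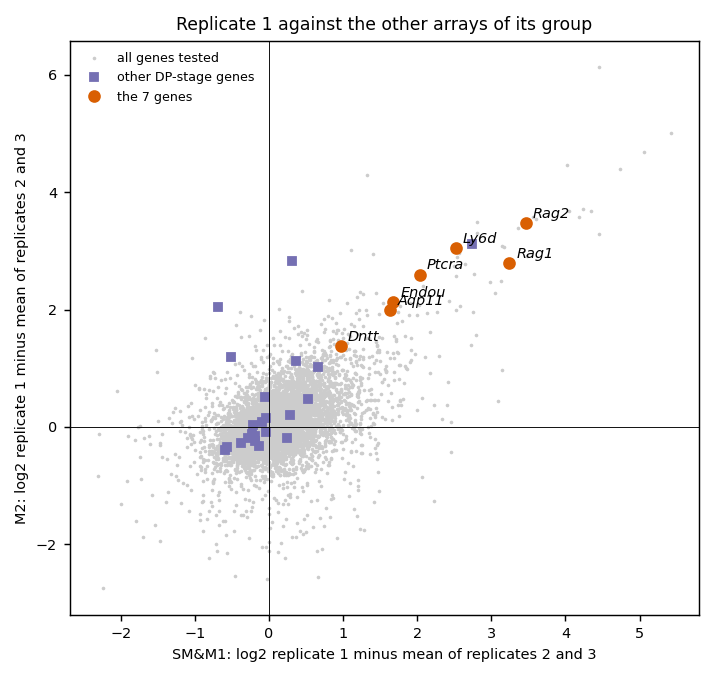
For every tested gene, the log2 signal of replicate 1 minus the mean of replicates 2 and 3, in SM&M1 (horizontal) and M2 (vertical). The 7 genes (orange) lie at 0.97 or more in SM&M1 and 1.38 or more in M2, and Arpp21 lies among them at 2.74 and 3.13. The other double-positive stage genes (purple) lie below 1 in SM&M1, and 5 of them lie above 1 in M2, up to 2.82 for Cd24a.

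Markers of other cells, and cell cycle genes, moved with the same arrays. The summed signal of 13 macrophage and myeloid markers was 4585 in SM&M1 replicate 1 and 722 and 914 in the others, and 4895 in M2 replicate 1 and 938 and 893 in the others. It was 593 to 879 in PreDP and 841 to 990 in PostDP. Of the 13, 7 lay above the array median in SM&M1 replicate 1 and 2 and 3 in the others, and 8 in M2 replicate 1 and 4 in each of the others. S100a8, a granulocyte transcript, gave 1799 in SM&M1 replicate 1 and 26.5 and 26.2 in the others, and the myeloid transcript Lyz2 gave 690, 88.3 and 54.3. S100a9 gave 811, 5.75 and 28.1 in SM&M1, and these transcripts made up much of the sum in replicate 1. Cd14, a macrophage and monocyte marker, gave 51.9, 75.5 and 60.3 in SM&M1. Replicate 1 was the highest array for 10 of the 13 in SM&M1 and 12 in M2, C1qa among them at lower signals of 20.4, 5.10 and 5.003. The summed signal of 10 NKT and innate-like T cell markers was 4678 in SM&M1 replicate 1 and 1205 and 1163 in the others, and 4846 in M2 replicate 1 against 1278 and 1630. It was 3082 to 4626 in PreDP and 1314 to 1560 in PostDP, and much of it was Gzma, a granzyme transcript that itself gave 2772 to 4327 in PreDP and 2227, 136 and 84.6 in SM&M1. Replicate 1 was highest for 10 of these 10 in SM&M1 and 8 in M2. In SM&M1 the cytotoxic granule gene Nkg7 gave 560, 71.6 and 96.3 and the NK receptor gene Klrd1 500.1, 41.7 and 42.9, and Zbtb16, the defining transcription factor gene of NKT cells, gave 174, 149 and 138. Of 11 B lineage markers, 9 lay above the array median in SM&M1 replicate 1 and 4 in each of the other SM&M1 arrays. Their summed signals were 2142, 1034 and 1291 in SM&M1. The sums were 2366 to 2796 in PreDP, 1802 to 2099 in PostDP and 1105 to 1767 in M2. Much of the PreDP sum was Cd79b, which gave 1314 to 1808 there and 242, 74.2 and 77.7 in SM&M1. Cd79b was itself among the genes most like the 7 genes over the 15 arrays. Cd79a, a B cell receptor subunit gene, gave 276, 52.2 and 70.9 in SM&M1 and 257, 87.4 and 132 in M2, and Ms4a1 gave 280.2, 105 and 79.3 in SM&M1, while Ebf1, a defining B lineage factor, was between 19.2 and 39.7 in these 6 arrays. Transcripts of effector and memory T cells moved with replicate 1 as well. Of 12 such markers, 11 lay above the array median in SM&M1 replicate 1 and 6 and 7 in the others, and 12 in M2 replicate 1 and 6 and 7 in the others. Their median log2 difference from the PreDP mean was 2.03 in SM&M1 replicate 1, against 0.27 and 0.36, and 1.64 in M2 replicate 1, against 0.56 and 0.45, although their summed signal, 12727 in SM&M1 replicate 1, lay between the 10729 and 13933 of the others. Of 10 markers of early double-negative progenitors, replicate 1 was highest for 8 in each of the groups, with a median difference of 0.85 in SM&M1, against -0.17 and 0.51, and 1.04 in M2, against 0.17 and 0.18. The summed signal of 19 cell cycle genes was 46255 in SM&M1 replicate 1 and 38114 and 40751 in the others. In M2 it was 55561 in replicate 1 and 32648 and 34759 in the others. The part of other cells and of cell division in the excess of the 7 genes was not tested.

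**Figure D4:**
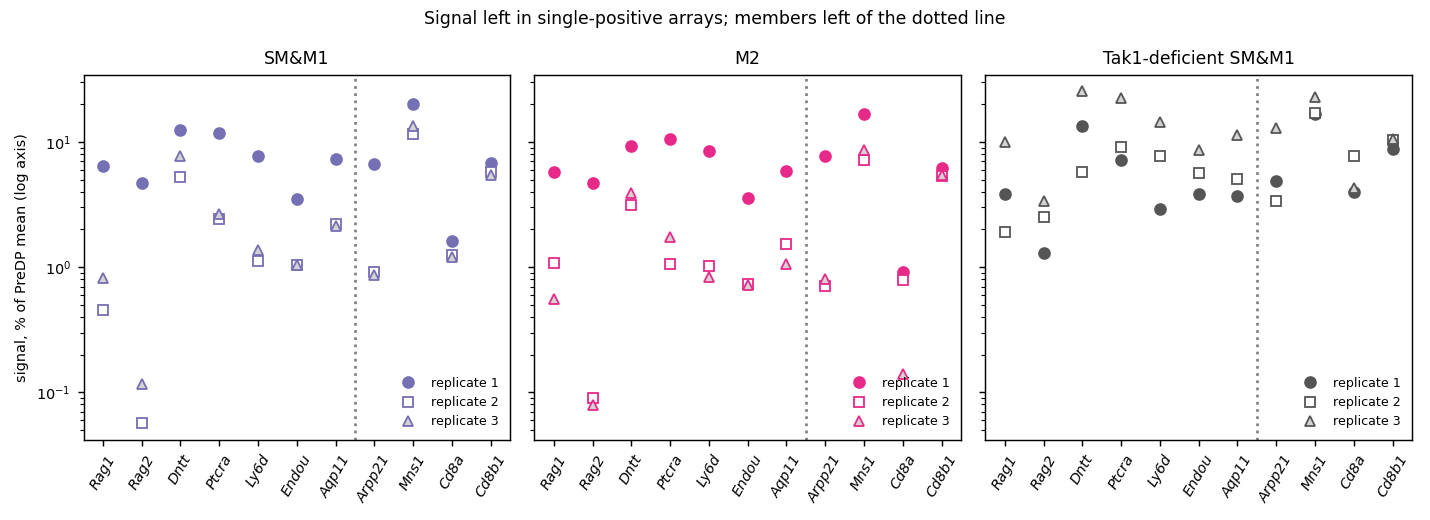
Signal as a percentage of the PreDP mean of the same gene, on a log axis, in each single-positive array. The 7 genes stand left of the dotted line, and Arpp21, Mns1, Cd8a and Cd8b1 right of it. In SM&M1 and M2 replicate 1 (filled circles) lies above the other arrays for the 7 genes, and in the Tak1-deficient group replicate 3 (triangles) does.

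Single-positive cells without Tak1 had more of each of these transcripts on average than SM&M1 cells, but none of the differences passed the test. Rag1 had signals of 896, 446 and 2330 in the Tak1-deficient arrays, which overlapped with those of SM&M1. Rag2 had 55.6, 107 and 146, and only 1 of these arrays was above the median of all its genes. Dntt had 2637, 1132 and 4993. The recombination genes were thus highest in Tak1-deficient replicate 3. Ptcra had 248, 313 and 769. Ly6d had 395, 1044 and 1939. Aqp11 had 236, 323 and 716. Replicate 1 was the lowest Tak1-deficient array for all 3 of these genes, and their ranges overlapped with those of SM&M1. Endou had 597, 876 and 1336, and was the 1 gene of the 7 with every Tak1-deficient array above every SM&M1 array, an arrangement found for 11.3% of tested genes.

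The log2 differences between Tak1-deficient and other SM&M1 arrays were all positive, from 0.65 ± 0.49 for Dntt to 1.81 ± 0.57 for Endou, with a median of 1.36 against 0.05 over all tested genes. The probe sets of Dntt disagree in size here, with 1.60 for 1450545_a_at and 0.61 for 1420166_at, neither passing. None of the 7 passed the test in limma (adjusted p from 0.135 for Endou to 0.492 for Dntt). Of all tested genes, 0.43% were called higher, or 1.69% in either direction. Of the 7 genes, 1 had an unadjusted p under 0.05, and the share of all tested genes at that threshold is not given. The interval for Endou ran from 0.57 to 3.05, and that for Rag1 from -0.43 to 3.58. Without SM&M1 replicate 1 the differences were larger, 2.66 for Rag1 and 2.37 for Endou (limma adjusted p = 0.207 and 0.0912), and none passed. Without Tak1-deficient replicate 2, the array with the high actin ratio, the Endou difference was 1.82 (limma adjusted p = 0.173). Replicate 3 was the highest Tak1-deficient array for 7 of 7 genes, against 26.8% of all tested genes, but the other 2 probe sets of Aqp11 were highest in replicate 2, with 250.5, 1599 and 287 for 1447606_x_at and 25.1, 215 and 111 for 1455846_at. By the probe sets used, the median share of the PreDP signal over the 7 genes was 3.86%, 5.68% and 11.3% in replicates 1, 2 and 3. The macrophage and myeloid markers summed to 1050, 5765 and 6279 in the same order, and the NKT and innate-like markers to 1924, 4095 and 4711. Signals of 19 cell cycle genes summed to 38348, 29081 and 52094. Cd8a gave 606, 1177 and 652, higher than in any SM&M1 array, and its highest array was replicate 2 and not replicate 3. Cd8b1 gave 1908, 2239 and 2294, against 1469, 1230 and 1168 in SM&M1, and neither Cd8 gene passed. Cd4, which the sort selects for, passed as lower, with 2648, 2888 and 2055 against 4145, 4486 and 5785 in SM&M1. The part of the gate, of other cells and of cell division in these differences was not tested.

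Set against PostDP, which shares its arrays with the comparisons above, Tak1-deficient SM&M1 cells had lower Aqp11, the only one of the 7 genes to pass (log2 difference -1.94 ± 0.57, limma adjusted p = 0.0462), where 3.72% of all tested genes were called lower. Rag1 and Aqp11 had every Tak1-deficient array below PostDP (11.7% of tested genes), and Ptcra had every array above PostDP (18.4%) by as little as 248 against 241. The Ptcra difference was 1.82 ± 0.78 and did not pass (limma adjusted p = 0.159). Ly6d was level in the means of both groups, with a difference of -0.04 and an interval from -1.87 to 1.79. The Aqp11 call was lost in a fit of the 2 groups alone (adjusted p = 0.0965), with a replicate block (0.236), without the filter (0.0758), with a pseudocount of 1 (0.0609) and after averaging the probe sets of each gene (difference -0.87, adjusted p = 0.111). The other Aqp11 probe sets gave 0.03 and -0.72 there (limma adjusted p = 0.974 and 0.467). It was also lost without any 1 PostDP array and without Tak1-deficient replicate 1 or 2 (adjusted p from 0.0754 to 0.140).

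Over the 15 arrays the 7 genes followed each other closely, where the arrays share stages, mouse lines and replicate numbers. Pearson's r between log2 signals ran from 0.749 for Ptcra and Rag1 to 0.984 for Ly6d and Rag2, with a median of 0.938 over 21 pairs, and among the 15 pairs without Ptcra the lowest was 0.922. Outside the 7 genes, those most like their mean profile were Arpp21 (r = 0.993), Mns1 (0.984), Rapgef3 (0.982), Lonrf1 (0.979) and Cd79b (0.979), all over the same 15 arrays. Then came Myzap (0.978), Tns3 (0.973), Anxa2 (0.972), Morc1 (0.967) and D930003E18Rik (0.965). The signal of Arpp21 was 12.4% of its PreDP mean in PostDP and 2.83% in SM&M1. Notch3, which encodes a Notch receptor of immature thymocytes, was the gene most like Ptcra (r = 0.966), followed by Nsd2 (0.957). For Endou the most similar genes were Lonrf1 (0.993) and Rapgef3 (0.990), and for Rag1 they were Nebl (0.982) and AA467197 (0.978). Nebl was also the nearest to Aqp11 (0.984), followed by Tox3 (0.982), while Dntt was nearest to Mei4 (0.982) and Ada (0.976). Rag2 was nearest to Arpp21 (0.980) and Cd79b (0.977), and Ly6d to Cbfa2t3 (0.978) and Rapgef3 (0.977).

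Genes next to the 7 in the genome mostly did not move with them. Iftap, beside both Rag genes in the RefSeq annotation, fell by 3.66 ± 0.46 on the log2 scale from PreDP to PostDP (limma adjusted p = 0.000114) and then differed by -0.71 ± 0.46 in SM&M1 (limma adjusted p = 0.393). Its second step was 2.95 ± 0.80 higher than its first (limma adjusted p = 0.0365). Iftap shared with Rag2 the larger difference at the first step, and Rag1 had its larger difference at the second. Traf6, on the other side of the Rag genes, differed by -0.30 ± 0.18 (limma adjusted p = 0.337). Rapgef3, next to Endou and encoding an exchange factor activated by cyclic AMP, fell at both steps, with differences of -2.998 ± 0.46 (limma adjusted p = 0.000577) and -1.70 ± 0.46 (limma adjusted p = 0.0288). Rpap3, on the other side of Endou, had differences of 0.28 and 0.04 (limma adjusted p = 0.631 and 0.965). The neighbours of Dntt (Blnk and Opalin), Ly6d (Lynx1 and Ly6g6g) and Aqp11 (Clns1a and Myo7a) passed at neither step, and of the Ptcra neighbours Cnpy3 passed at neither and 2310039H08Rik was higher in SM&M1 (0.70 ± 0.19, limma adjusted p = 0.0298).

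Other genes of recombination and end joining went in both directions. Of 18 other genes for recombination and end joining, 3 were lower and 2 higher in PostDP than in PreDP, with a median difference of -0.07. Of all 11871 tested genes, 899 were lower and 873 higher at this step. From PostDP to SM&M1, 492 were lower and 931 higher, and the counts of this list at that step lie near those shares. Xrcc6, which encodes the Ku70 subunit that binds broken ends, fell by 2.83 ± 0.25 (limma adjusted p = 6.34e-06), and Lig4, the ligase that seals the join, fell by 1.28 ± 0.37 (0.0344). The polymerase genes Poll and Polm rose, by 1.32 ± 0.37 (limma adjusted p = 0.0262) and 0.83 ± 0.23 (0.0244). From PostDP to SM&M1, 1 of the 18 was lower and 2 higher: Lig4 fell by a further 1.83 ± 0.37 (limma adjusted p = 0.00604), Nbn rose by 1.65 ± 0.23 (0.000509) and Xrcc5, the Ku80 subunit, rose by 0.63 ± 0.16 (0.0233). Lig4 was thus the gene of this list that fell at both steps, as Dntt, Endou and Aqp11 did.

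Among 22 other genes listed for the double-positive stage, 10 fell and 2 rose from PreDP to PostDP (median -0.89). From PostDP to SM&M1, 10 fell and 1 rose (median -0.86). Of all tested genes, 7.57% fell at the first step and 4.14% at the second. Arpp21 fell by 3.05 ± 0.85 at the first step (limma adjusted p = 0.0269) and Tdrd5 by 2.24 ± 0.26 (5.26e-05), while St6gal1 rose by 2.72 ± 0.23 (3.03e-06) and Nrgn by 2.19 ± 0.50 (0.00895). At the second step Cd8a fell by 4.95 ± 0.43 (limma adjusted p = 1.07e-05), the chemokine receptor gene Cxcr4 by 3.52 ± 0.59 (0.00166) and Cd8b1 by 2.89 ± 0.18 (7.35e-07), while Nrgn rose by 2.03 ± 0.50 (0.0181). From SM&M1 to M2, where none of the 7 genes passed, 4 of these 22 fell and 1 rose, with log2 differences of -2.503 ± 0.56 for Cd24a (limma adjusted p = 0.0319), -2.36 ± 0.50 for Nrgn (0.0245), -2.30 ± 0.35 for the chemokine receptor gene Ccr9 (0.00333) and -1.60 ± 0.20 for Plxnd1 (0.00109). Between Tak1-deficient and other SM&M1 cells, 0 of the 22 passed in limma, where 1.69% of all tested genes passed in either direction. At an unadjusted p under 0.05 there were 8 of the 22, 7 of them higher. The share of all tested genes at that threshold is not given, so this count is not read as a change. Cd8a differed by 1.84 ± 0.43 (limma adjusted p = 0.0510).

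A list of 21 genes held transcription factors known at the Rag and Ptcra control regions and the inhibitors Id2 and Id3. Of these, 6 rose and 3 fell at the first step. Of all 11871 tested genes, 873 rose and 899 fell there, and 931 rose and 492 fell at the second step. The inhibitor genes Id2 and Id3, whose proteins block E proteins from DNA, rose by 3.19 ± 0.39 (limma adjusted p = 8.03e-05) and 1.43 ± 0.22 (0.000534). Gata3 rose by 2.05 ± 0.21 (limma adjusted p = 2.16e-05) and Lef1 by 1.31 ± 0.25 (0.00246). At the second step 5 fell and 1 rose: Myb fell by 3.18 ± 0.53 (limma adjusted p = 0.00162), Gfi1 by 1.80 ± 0.30 (0.00186) and Gata3 by 1.22 ± 0.21 (0.0021), and Foxo1 rose by 1.44 ± 0.25 (0.00203). Of 14 genes of the pre-T cell receptor and Notch pathways, 4 fell and 2 rose at the first step, where Ptcra fell: Notch3 fell by 2.54 ± 0.47 (limma adjusted p = 0.00231), the Notch target Dtx1 by 1.57 ± 0.28 (0.00179) and Notch1 by 1.09 ± 0.18 (0.00119), and the cytokine receptor gene Il7r rose by 4.25 ± 0.26 (1.94e-07). At the second step 3 rose and 1 fell, with Dtx1 up by 2.63 ± 0.28 (limma adjusted p = 4.81e-05) and Notch1 by 0.69 ± 0.18 (0.0279), while Ptcra differed by 0.51 without passing.

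Cell cycle genes fell with the 7 genes and then took the opposite course. Of 19 tested, 15 fell and 0 rose from PreDP to PostDP (median -3.02), led by Rrm2, a ribonucleotide reductase subunit, which fell by 4.19 ± 0.64 (limma adjusted p = 0.000575), and by E2f8, at -4.12 ± 0.67 (0.00089). From PostDP to SM&M1, 11 rose and 0 fell (median 1.72), with Bub1 up by 3.04 ± 0.75 (limma adjusted p = 0.0176) and Cdk1 by 2.97 ± 0.74 (0.0183), while Rag1, Dntt, Endou and Aqp11 fell. In limma no gene of the recombination, factor, pre-T cell receptor and Notch or cell cycle lists passed between Tak1-deficient and other SM&M1 arrays. At an unadjusted p under 0.05 these lists had 2, 2, 0 and 0 genes, and the share of all tested genes at that threshold is not given.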

How the data were processed

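RNA from sorted thymocytes was amplified in a single round into biotinylated cRNA and hybridised to mouse Affymetrix arrays, per the labels' protocols. What was deposited is 1 linear intensity for each of 45101 probe sets in 15 arrays. The authors' summarisation algorithm is not given in the sources used here. Every array has a mean signal of 500 after the highest and lowest 2% of probe sets are left out, as computed from the values. No detection calls were used, and the number of arrays limits precision.

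Probe sets were named through the platform annotation: 34945 had 1 gene, 932 several and 9160 none, and 64 controls were left out. For each of 18193 genes the probe set with the highest mean was kept. Signals were taken as log2(signal + 16) and fitted with limma 3.58.1 (R 4.3.3), with 1 mean per group over all 15 arrays (10 residual degrees of freedom), without a block for replicates, and p-values were adjusted by Benjamini-Hochberg over the 11871 genes above the array median in at least 3 arrays. The fit was tested on simulated data. Genes passed at adjusted p under 0.05.

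Replicate numbers were checked by correlating the deviations of same-numbered arrays. They were 0.339, 0.275 and 0.411 for PreDP and PostDP and 0.553, 0.436 and 0.326 for SM&M1 and M2, so these were taken as paired. They were -0.01, 0.124 and 0.03 for SM&M1 and PostDP, and below 0 for the Tak1-deficient comparisons, which were not taken as paired. The main fit used no pairing in any comparison, and fits with the replicate block are given beside it as alternatives.

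The 7 genes and the 14 gene lists (188 genes, 15 of them unmeasured) were chosen with earlier results of these data known. In the lists, up to 4 genes that passed with the largest change are named, or the largest where none passed, together with neighbours in the RefSeq annotation and the genes with the highest Pearson r. Genes named besides these were chosen after their values were seen. Alternatives were the replicate block, fits of only the groups compared, other filters, pseudocounts, scalings and probe set rules, and leaving out single arrays.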

Additional observations from a re-analysis of the deposited data

How the results depend on the processing

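At the first step 4 to 6 of the 7 genes stayed lower when single arrays were left out, and genes called over all tested genes numbered 1772, 2703 with the replicate block, and 1171 to 2992 without single arrays. At the step to SM&M1 the 7 genes gave 1 to 5 calls without single arrays, and all genes gave 1423, 2467 in a fit of only these groups, 825 after centring on array medians, and 871 to 2726 without single arrays. From SM&M1 to M2 the counts over all genes were 277, 428 with only these groups, 594 with the replicate block, 132 after centring, 110 without replicate 1 of both groups, and 82 to 672 without single arrays. For Tak1-deficient against other SM&M1 they were 201, 5 with only these groups, 0 with the replicate block, 114 without the filter, 97 after centring, and 65 to 347 without single arrays. For Tak1-deficient SM&M1 against PostDP they were 1292, 176, 0 with the replicate block, 606 after centring, and 674 to 1776. There the 1 lower gene of the 7 became 0 with only these groups, the replicate block, no filter, a pseudocount of 1, the mean of all probe sets, and 5 of the single arrays left out (0 to 1). The difference between steps kept 0 to 1 calls without single arrays. Without Tak1-deficient replicate 2, counts rose in all of the comparisons between neighbouring stages. The replicate block changed no call of the 7 genes other than those of Rag1, Ly6d and Aqp11 given above. Centring moved the median of all genes from 0.01 to -0.13 at the first step and the share of calls that were higher from 49.3% to 36.1%, and for Tak1-deficient against other SM&M1 from 25.4% to 13.4%.

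Of 644 single-gene values under alternatives, 584 kept direction and side of the threshold, 35 lost a call, 4 gained one and 21 changed sign, none of these 21 called. From SM&M1 to M2 the sign turned for Rag2 with a pseudocount of 1 (0.02) and for Aqp11 with the mean of all probe sets (0.118). Without single arrays the values there ran from -0.767 to 1.246 for Rag1, -1.159 to 1.155 for Rag2, -1.387 to 0.156 for Ptcra, -1.222 to 0.634 for Ly6d, -1.004 to 0.264 for Endou and -1.207 to 0.002 for Aqp11. In the same way Ptcra in SM&M1 against PostDP ran from -0.166 to 1.086, and Ly6d in Tak1-deficient SM&M1 against PostDP from -0.561 to 0.564. The causes were not tested. Signals near the array median limit what can be said of Rag2 and Ptcra in single-positive cells.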
